A study of Mus musculus with 12 samples.

Results

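The comparison described here sets IL-18 knockout (KO) mice against wild-type (WT) mice across the olfactory bulb, prefrontal cortex, striatum, hippocampus and hypothalamus. It uses 10 of the 12 one-colour microarrays of the study, paired within each region, which gives 5 pairs of KO minus WT. The arrays labelled amygdala were left out by rule. Every array was hybridised with RNA pooled in equal amounts from 5 male mice aged 12 weeks, labelled as C57BL/6 background with the genotype WT or IL-18 KO. The mice were F2 littermates bred from a cross of IL-18-/- males with C57BL/6J females, were perfused through the heart with cold saline, and each region was cut from 1 mm coronal slices. No mouse received a treatment. There was 1 array for each region and genotype, so the region pair is the repeated unit. Whether all regions of a genotype were taken from the same mice is not stated in the labels. The p-values below therefore measure only how evenly a KO minus WT difference recurred from region to region; if the pools share animals, they overstate what is known about the genotype.

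IL-18 is a cytokine of the IL-1 family. It is made as an inactive precursor that caspase-1, activated in inflammasomes, cleaves to the mature form. The mature cytokine binds a receptor of an IL18R1 chain and an accessory IL18RAP chain and signals through MyD88, IRAK kinases and TRAF6 to NF-kB, while IL-18 binding protein captures it outside the cell. In the brain, IL-18 has been described in microglia, in ependymal cells and in neurons of the medial habenula.

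Levels are log2 of the background-corrected spot signal minus the 75th percentile of that array, so a level of 0 is the 75th percentile of the array's gene spots. The array carried 41174 gene probes, of which 22944 could be given a gene symbol. A probe was tested only where it stood well above background on all 10 arrays, which left 23921 probes. Of these, 15778 named 11869 genes, and a gene with several probes is given by its brightest tested probe unless stated. A gene whose probes fell to background in KO tissue was not tested. The 75th percentile of the raw signal ran from 208.3 (striatum WT) to 715.7 (olfactory bulb KO). Between 60.8% and 81.3% of spots were well above background, with the striatum WT array the dimmest, and no spot was saturated. In the olfactory bulb, prefrontal cortex, hippocampus and hypothalamus pairs the share of spots above background was lower on the KO array, by name 78.8% against 81.3%, 72.9% against 76.6%, 76.4% against 77.7% and 77.2% against 77.9%. In the striatum pair it was higher on the KO array, 67.1% against 60.8%. The part of this difference in the results was not tested. Each region had its own slide, and WT and KO took the same 2 positions on every slide, so array position and genotype cannot be told apart. Regional markers matched the labels: 7 of 7 markers were highest on the olfactory bulb arrays, 4 of 6 on the prefrontal cortex arrays, 6 of 7 on the striatum arrays, 7 of 7 on the hippocampus arrays and 7 of 7 on the hypothalamus arrays.

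Il18 fell in all 5 regions. Its probe, printed 10 times on each array, read 0.71 in olfactory bulb WT, 0.57 in prefrontal cortex WT, 1.12 in striatum WT, 0.61 in hippocampus WT and 0.75 in hypothalamus WT. The same probe read -3.45, -3.70, -3.26, -3.12 and -3.78 on the KO arrays in that order. The groups did not overlap, and every KO array lay far below every WT array. The mean difference was -4.21 on the log2 scale (SE 0.113, SD 0.30 over 5 pairs), an 18.5-fold lower signal, with an adjusted p of 0.000135 in the paired limma fit. The exact sign-flip permutation test of the 5 differences gave a two-sided p of 0.0625, the smallest that 5 pairs allow. With normexp background correction in place of the scanner's, the mean difference was -3.01. The remaining KO signal was still scored as well above background on every KO array.

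The other genes of the IL-18 pathway showed no change that passed the test. Of 33 listed genes 24 were measured on all 10 arrays, and Il18 alone passed the adjusted threshold of 0.05, against 0.0253% of all named genes tested. The median difference of the list was -0.07, beside -0.0020 over all named genes tested. The receptor chains Il18r1 and Il18rap were not well above background on all 10 arrays and gave no value, nor did Ifng, the cytokine that IL-18 is best known for inducing in T cells and natural killer cells, or Il1b. Il18bp, the soluble inhibitor, differed by -0.10 (SE 0.083, adjusted p 0.494 in limma), and its other tested probe by -0.34. Casp1, the protease that cleaves the precursor, differed by 0.19 (SE 0.108) with a negative value of -0.28 in the striatum pair and positive values in the other 4 pairs. Nlrp3 (0.09) and Pycard (0.09), a sensor and the adaptor of the inflammasome, and Gsdmd (-0.11), the pore protein through which the cytokine leaves macrophages, were likewise not called. Downstream of the receptor, Myd88 differed by 0.01, Irak4 by -0.18, Irak1 by -0.18, Traf6 by 0.01 and Rela by -0.0029. Irak1 and Pycard each had a tested probe of the other sign (0.09 and -0.0070). The further tested members, among them the kinases Map3k7 (-0.14), Chuk (-0.17) and Ikbkb (-0.06), Nfkb1 (0.10), its inhibitor Nfkbia (-0.12) and Sigirr (-0.10), a receptor that damps IL-1 family signalling, lay between -0.19 for Il1rap and 0.13 for Il33. Of the 24, 3 were lower in all 5 pairs (12.5%, against 11.2% of all named genes tested), namely Il18, Gsdmd and Il1r1. None was higher in all 5 (0%, against 13%). Il1r1, the receptor of IL-1, was lower by 0.08, 0.11, 0.20, 0.21 and 0.30 in the order of regions used above (mean -0.18, SE 0.053, adjusted p 0.125 in limma).

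In the paired limma fit 13 of 23921 probes passed an adjusted p of 0.05, which is 0.0543% of those tested. Of these, 9 were lower (0.0376%) and 4 higher (0.0167%) in KO tissue. At an unadjusted p of 0.05, 5818 probes (24.3%) passed, and 670 probes had an adjusted p under 0.1, the smallest after the called ones being 0.0594. Many p-values lay just past the threshold, and the count moved with the setting: it was 1 to 6 with any 1 region pair left out, 696 when only the brighter 50% of the probes were tested and 811 with the amygdala pair added. Of the 13 called probes 7 carried a gene symbol, and all 7 genes lie on chromosome 9, the chromosome of Il18, which holds 5.906% of the named genes tested. The other 6 called probes could not be named, and of these 4 were higher and 2 lower in all 5 pairs.

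Besides Il18, Cryab and Alg9 fell by their brightest probe. Cryab, which encodes alpha B-crystallin, a small heat shock protein abundant in glia and lens, is the eighth tested gene from Il18 along the chromosome. Its level was 2.13 in olfactory bulb WT and 0.65 in KO, 2.53 and 1.47 in prefrontal cortex, 3.40 and 2.26 in striatum, 3.37 and 2.51 in hippocampus, and 2.77 and 1.66 in hypothalamus. Every region had the lower value in KO, although the hippocampus and striatum KO arrays lay above the olfactory bulb WT array. The mean difference was -1.13 (SE 0.089, 2.19-fold lower, adjusted p 0.0338 in limma over 5 pairs). A second, dimmer Cryab probe was lower in all 5 pairs too, with a mean of -0.77 (SE 0.125, adjusted p 0.0921). Alg9, a mannosyltransferase that builds the lipid-linked sugar used in N-glycosylation, lies 12 tested genes from Il18. Its level was 0.58 and -0.12 in olfactory bulb WT and KO, 1.05 and 0.40 in prefrontal cortex, 0.67 and 0.06 in striatum, 0.81 and 0.39 in hippocampus, and 1.03 and 0.39 in hypothalamus. All 5 KO arrays were below all 5 WT arrays. The mean difference was -0.61 (SE 0.057, 1.52-fold lower, adjusted p 0.0449 in limma), and a second probe gave -0.37 (SE 0.076, adjusted p 0.0968). With any 1 of the 5 pairs left out, neither Cryab (-1.20 to -1.04) nor Alg9 (-0.65 to -0.58) passed the adjusted threshold.

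Pts, which encodes a synthase of tetrahydrobiopterin, the cofactor of dopamine and serotonin synthesis, is the tested gene next to Il18. Its dimmer probe was called, at -0.82 (SE 0.080, adjusted p 0.0449 in limma), while the brighter one gave -0.50 (SE 0.068, adjusted p 0.0921). With each pair left out in turn, the dimmer probe (-0.90 to -0.77) passed in 1 of 5 fits. The brighter probe read 1.47 and 0.78 in olfactory bulb WT and KO, 1.69 and 1.41 in prefrontal cortex, 1.39 and 0.83 in striatum, 2.05 and 1.51 in hippocampus, and 2.17 and 1.72 in hypothalamus. Each KO array was below its own WT array on both probes, though the regions overlapped.

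**Figure D1:**
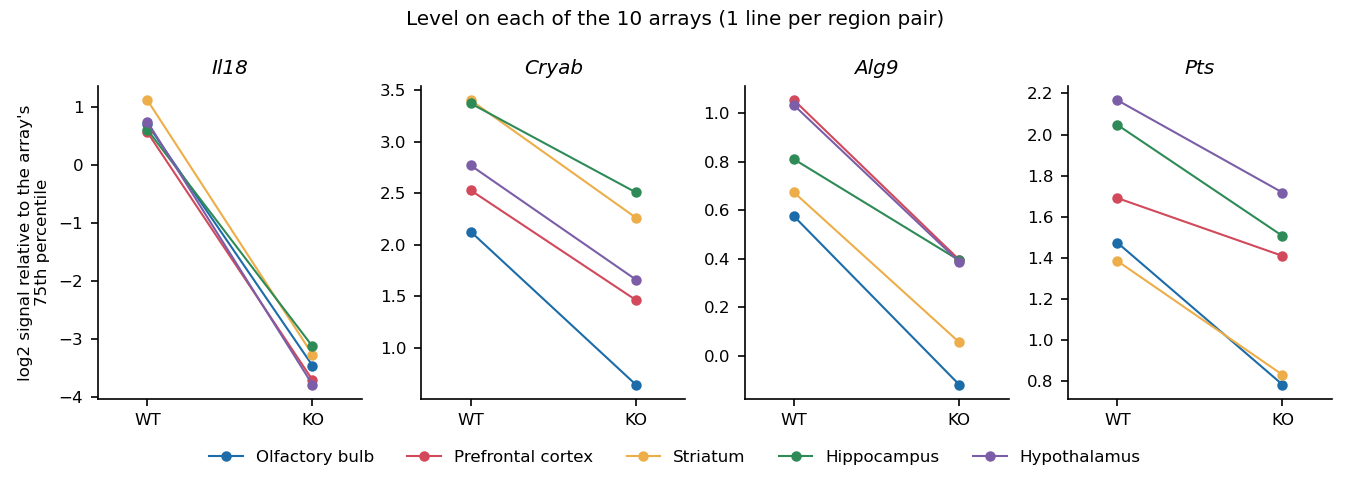
Level (log2 signal relative to the array's 75th percentile) of Il18, Cryab, Alg9 and Pts on the 10 arrays, brightest probe, with 1 line from WT to KO for each region and a separate vertical scale for each gene. All 5 lines slope down in each panel, and the mean KO minus WT differences are -4.21, -1.13, -0.61 and -0.50.

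The remaining called genes gave conflicting probes. For Rps25, a protein of the small ribosomal subunit, a dim probe fell by 0.92 (SE 0.048, adjusted p 0.00541 in limma), ranging from 0.87 to 1.03 over the pairs. Its bright probe differed by -0.02 (SE 0.054). For Pcsk7, a proprotein convertase, the dimmer probe fell by 1.28 (SE 0.075, adjusted p 0.00755) and the brighter one gave -0.16 (SE 0.060, adjusted p 0.174). For Ift46, a component of the intraflagellar transport complex of cilia, the dimmer probe fell by 1.06 (SE 0.102, adjusted p 0.0449), while the brighter probe gave 0.19 (SE 0.082). These 3 genes lie 40, 21 and 34 tested genes from Il18 on the side opposite to Cryab and Alg9. Since the probes of each gene disagree, a change of the gene's total transcript was not measured. With each pair left out in turn, the dimmer probe passed in 2 of 5 fits for Rps25 (-0.93 to -0.90), in 2 of 5 for Pcsk7 (-1.34 to -1.25) and in 0 of 5 for Ift46 (-1.15 to -0.995).

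Differences of 1 sign in all 5 pairs were denser close to Il18. Over all named genes tested, 13% were higher and 11.2% were lower in KO in all 5 pairs, together 24.1%. Counted over all probes, 2899 were higher (12.1%) and 2983 lower (12.5%), together 5882 (24.6%). Within 10 positions of Il18 to either side, which takes in 20 tested genes, 45% had 1 sign in all pairs, and among the nearest 50 and 100 genes the shares were 42% and 40%. The share was 29.3% among the nearest 300 genes, 26.7% over the 700 other genes of the chromosome and 23.9% over the 11168 genes of the other chromosomes. An unadjusted limma p under 0.001 was reached by 12% of the nearest 50 genes and 10% of the nearest 100, against 0.609% on the other chromosomes, where no named gene was called by its brightest probe. The window sizes were chosen with earlier results of these data known, and no test was made of the windows.

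The direction around Il18 was mixed. Among the nearest 50 genes 9 were higher and 12 lower in all pairs. Fdx1, a ferredoxin that passes electrons to mitochondrial cytochromes P450, had levels of 1.02, 0.76, 0.77, 1.11 and 1.15 in WT and 1.57, 1.59, 1.25, 1.74 and 1.59 in KO in the order olfactory bulb, prefrontal cortex, striatum, hippocampus and hypothalamus. All KO arrays were above all WT arrays. The mean difference was 0.59 (SE 0.068, adjusted p 0.0921 in limma), and 2 further probes gave 0.36 and 0.32, so that its 3 probes have the same sign. Rexo2, an oligoribonuclease of mitochondria, differed by 0.42 (SE 0.051, adjusted p 0.0921) and was higher in all 5 pairs. Hyou1, a chaperone of the endoplasmic reticulum, differed by 0.48 (SE 0.062, adjusted p 0.0921), from 0.31 to 0.61 over the pairs. On the lower side, Fdxacb1 differed by -0.36 (SE 0.049), Bcl9l, a Wnt pathway coactivator, by -0.41 (SE 0.061), and Stra6, a receptor for retinol binding protein, by -0.69 (SE 0.101). Hyou1 and Bcl9l lie outside the nearest 50 genes but among the nearest 100, and Stra6 lies farther out, 68 tested genes from Il18. Hspb2, the small heat shock gene whose start lies beside that of Cryab, differed by -0.22 and was lower in all 5 pairs. None of these passed the adjusted threshold.

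**Figure D2:**
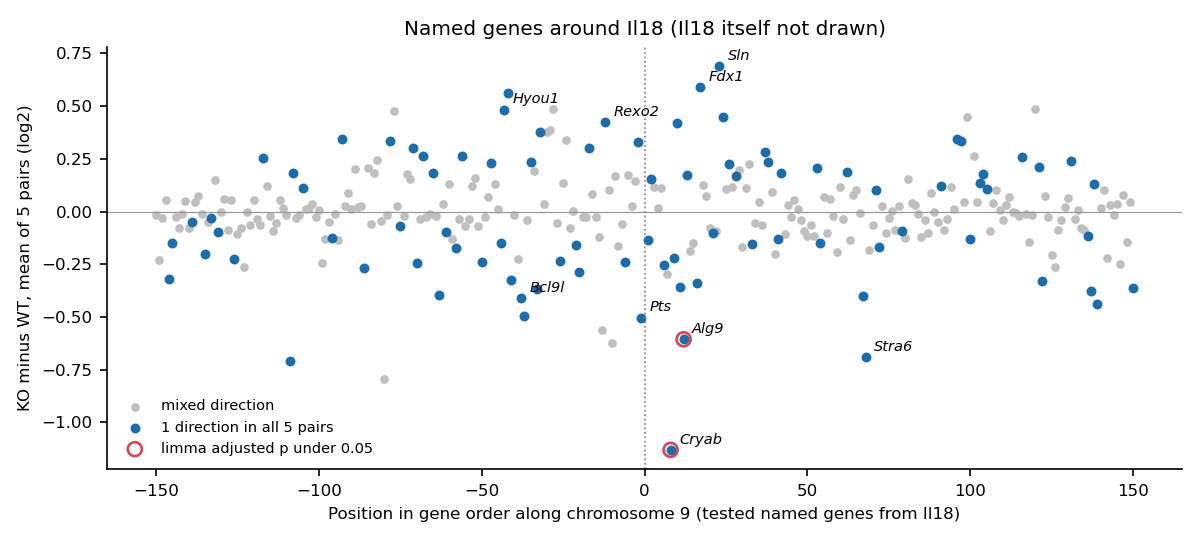
KO minus WT (log2, mean of 5 pairs) for the tested named genes up to 150 positions on either side of Il18, in gene order along chromosome 9; Il18 at -4.21 is left out to keep the scale. Blue points have 1 sign in all 5 pairs, grey points have mixed signs, and red rings mark the called genes Cryab and Alg9; blue points away from 0 gather within about 50 positions of Il18 on both sides of the zero line.

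Away from chromosome 9, the genes with the smallest p-values differed by small amounts, and none passed the adjusted threshold. They were picked among genes with 1 sign in all 5 pairs, and a small paired p-value favours an even difference. Their likeness across regions therefore follows from the choice and is not a result. Higher in all 5 pairs, each with an adjusted p of 0.0921 in limma, were Eef1a2, a translation elongation factor of neurons and muscle (0.53, SE 0.074), Mog, a glycoprotein of the myelin surface (0.53, SE 0.075), Hk1, the main hexokinase of brain (0.47, SE 0.068, with 0.48 and 0.37 at 2 other probes), and Gnaz, an inhibitory G protein subunit (0.46, SE 0.066). Slc41a1, a magnesium transporter, differed by 0.43, Zc3h6 by 0.41, Smyd5 by 0.34, Eri3 by 0.34 and Snx21 by 0.33. The larger positive means, picked by size instead, were less even. Pon2, a paraoxonase that limits lipid oxidation, had a mean of 0.88 (SE 0.173, 0.36 to 1.60 over the pairs) and a second probe of 0.65. Med29, a Mediator subunit, had a mean of 0.68, Spag7 and the tubulin Tuba1b 0.64 each, and Magee1 0.63. The exception to that location was Sln, a regulator of calcium pumps, which lies on chromosome 9, 23 tested genes from Il18. It owed its mean of 0.69 to the hippocampus pair at 2.97, the other 4 pairs lying between 0.0069 and 0.24.

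Among the lower genes, Nek7, a kinase that activates the NLRP3 inflammasome in macrophages, had a mean difference of -0.41 (SE 0.061, adjusted p 0.0921 in limma). Pax5, a developmental transcription factor, had -0.52 at a dim probe (mean level -3.63). Gdf7, a growth factor of the BMP group, had -0.39 and Arhgap10 -0.43. Smc2, a condensin subunit, had -0.50 (mean level -2.78). Its second, dimmer probe gave -0.49 but was higher by 0.07 in the olfactory bulb pair. Lzts1 had -0.90 and Ski, a corepressor of TGF-beta signalling, -0.80, the latter ranging in size from 0.16 to 1.92. Pdpk1, the kinase that activates AKT, had -0.92 at its brightest probe but 0.19 and 0.21 at its other probes. All of these genes were lower in all 5 pairs by their brightest probe, and none was called.

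The size of the differences varied between the region pairs. The median absolute deviation of the KO minus WT differences over probes was 0.11 in the olfactory bulb, 0.19 in the prefrontal cortex, 0.16 in the striatum, 0.14 in the hippocampus and 0.095 in the hypothalamus. With 1 array on each side there was no test within a region. At least 2-fold lower in KO were 50 probes in the olfactory bulb (0.209%), 750 in the prefrontal cortex (3.14%), 153 in the striatum (0.64%), 210 in the hippocampus (0.878%) and 86 in the hypothalamus (0.36%). At least 2-fold higher were 26 (0.109%), 169 (0.706%), 177 (0.74%), 70 (0.293%) and 33 (0.138%) in the same order. The lower probes outnumbered the higher ones in every pair except that of the striatum. As a description over 23921 probes, which share arrays and are not independent, the differences of the prefrontal cortex correlated with those of the hippocampus (r = 0.588) and the olfactory bulb (r = 0.532), whereas those of the striatum correlated weakly with every other pair (r between 0.070 and 0.197). At least 2-fold lower in 4 or more pairs were 8 probes (0.0334%), among them Il18, Pcsk7, Cryab, Fosl2 and Krt2, and only those of Il18 and Pcsk7 in all 5 (0.00836%). No probe (0%) was at least 2-fold higher in 4 or more pairs.

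Immediate early genes are transcribed within minutes of neuronal activity or growth factor signalling and do not need new protein for it. Of 27 listed 25 were tested, none was called, and 11 (44%) were lower in all 5 pairs, against 11.2% of all named genes. One, Jun, was higher in all 5 (4%, against 13%). The median difference of the list was -0.23, beside -0.0020 over all named genes, and it was negative in each region: -0.26 in the olfactory bulb, -0.32 in the prefrontal cortex, -0.23 in the striatum, -0.13 in the hippocampus and -0.17 in the hypothalamus. The list was chosen with earlier results of these data known, and several of its members respond to the same stimuli, so their counts are not independent.

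Many immediate early genes carry cAMP response elements, to which CREB binds. To show what members that were lower together have in their promoters, the RefSeq promoters (build GRCm38.p6, 250 bases before to 50 after the start) of Fos, Nr4a1 and 1 of the 5 listed for Egr2, the first that holds a match, are printed with each match to TGACG, the core of the element, on either strand in capitals. The Fos promoter lies at chr12:85473640-85473939, that of Nr4a1 at chr15:101266596-101266895 and that of Egr2 at chr10:67537619-67537918, all on the plus strand.
Fos: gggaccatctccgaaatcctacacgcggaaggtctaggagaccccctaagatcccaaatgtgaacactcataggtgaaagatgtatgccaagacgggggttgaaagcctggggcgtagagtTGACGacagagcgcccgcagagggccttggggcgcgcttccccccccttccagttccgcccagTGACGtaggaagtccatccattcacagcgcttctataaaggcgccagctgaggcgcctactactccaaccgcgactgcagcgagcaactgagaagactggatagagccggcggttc
Nr4a1: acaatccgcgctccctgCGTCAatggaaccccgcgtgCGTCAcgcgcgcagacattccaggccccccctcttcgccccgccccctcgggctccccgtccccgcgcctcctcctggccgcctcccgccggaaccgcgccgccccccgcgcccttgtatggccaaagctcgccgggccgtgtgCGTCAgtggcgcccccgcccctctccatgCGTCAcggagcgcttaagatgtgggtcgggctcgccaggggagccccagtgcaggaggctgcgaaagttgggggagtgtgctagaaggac
Egr2: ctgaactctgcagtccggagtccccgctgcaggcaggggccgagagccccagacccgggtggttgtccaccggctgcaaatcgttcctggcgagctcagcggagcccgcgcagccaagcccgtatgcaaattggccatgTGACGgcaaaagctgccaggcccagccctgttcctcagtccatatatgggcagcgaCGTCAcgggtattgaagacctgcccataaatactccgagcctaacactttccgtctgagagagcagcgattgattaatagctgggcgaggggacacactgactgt
The core TGACG, which the full element TGACGTCA contains, was present in 20.8% of 32851 mouse promoters of this length, and the full element in 1.79%. Of 25 promoters of tested immediate early genes 18 (72%) held the core. By gene, 15 of the 19 tested members with an entry held it. The share did not separate the members by their values: it was present in 6 of the 8 that were lower in all 5 pairs and in 9 of the other 11. A match of these letters is a description of the sequence and not a measured binding site.

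Fos, the transcription factor most used as a marker of neuronal activity, read 1.85, -0.03, -0.78, -1.11 and -0.41 on the WT arrays and 1.50, -0.62, -1.14, -1.38 and -0.87 on the KO arrays of the olfactory bulb, prefrontal cortex, striatum, hippocampus and hypothalamus. Each KO array was below its own WT array by 0.27 to 0.59, less than the spread between regions. The mean difference was -0.40 (SE 0.060, adjusted p 0.0921 in limma). Egr2, a zinc finger factor, read 1.95, 0.36, 1.11, -0.99 and -0.47 in WT and 1.14, -0.22, 0.64, -1.26 and -1.25 in KO (mean difference -0.58, SE 0.089, adjusted p 0.0921). Nr4a1, an orphan nuclear receptor, read 5.99, 4.69, 5.58, 4.02 and 3.23 in WT and 5.17, 4.26, 4.86, 3.84 and 2.78 in KO (mean difference -0.52, SE 0.098, adjusted p 0.0921). For these 3 genes the pair with the smallest difference was that of the hippocampus.

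Smaller means of the same sign in all pairs were found for Ccn1, a matricellular protein (-0.42), Ier2 (-0.33), the zinc finger factor Egr1 (-0.29), the kinase Sik1 (-0.28), the AP-1 subunit Junb (-0.24), the phosphatase Dusp6 (-0.23) and Klf4 (-0.21). Fosl2, another AP-1 subunit, had the most negative mean of the list, -1.20 (SE 0.212, adjusted p 0.0921 in limma), but its probes disagreed: the second probe gave -0.09 (SE 0.147). The activity-dependent genes with mixed signs included Arc, a regulator of synaptic receptors (-0.28, with 0.02 in the olfactory bulb), Npas4 (0.01, from -1.02 in the hippocampus to 1.42 in the striatum) and Nr4a2 (-0.10, with 1.37 in the striatum). Fosb differed by 0.21 and Homer1, a scaffold of the postsynapse, by 0.21, neither with 1 sign in all pairs. The striatum pair, which holds the 2 dimmest arrays, gave the most positive difference for Npas4, Nr4a2 and Fosb.

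**Figure D3:**
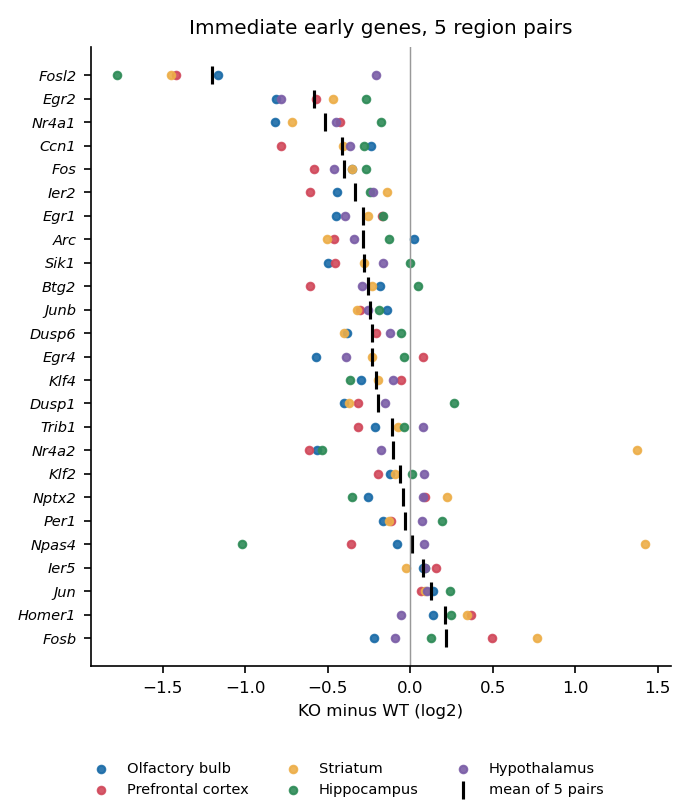
KO minus WT (log2) in each of the 5 region pairs (coloured points) and their mean (black bar) for the 25 tested immediate early genes, ordered by mean. Of these, 11 have all points left of 0 and Jun alone has all points right of 0; the Fosl2 bar at -1.20 rests on 1 of 2 disagreeing probes.

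Microglia are the resident macrophages of the brain and the source of most of its complement C1q. Of 22 listed markers 19 were tested and none was called, and 8 (42.1%) were higher in all 5 pairs, against 13% of all named genes, while 2 (10.5%) were lower, against 11.2%. The list median was 0.12, with 0.045 in the olfactory bulb, 0.12 in the prefrontal cortex, 0.15 in the striatum, 0.14 in the hippocampus and 0.13 in the hypothalamus. In pooled tissue, more cells of a type and more RNA per cell cannot be told apart. C1qa, a chain of complement C1q, read 0.26, 0.78, -0.32, 1.05 and 0.95 in WT and 0.55, 1.46, 0.13, 1.44 and 1.21 in KO in the order of regions used above. Each KO array was above its own WT array, while the ranges of the genotypes overlapped (mean difference 0.42, SE 0.072, adjusted p 0.0921 in limma). The other C1q chains differed by 0.34 (C1qb) and 0.15 (C1qc), the lysophosphatidylserine receptor Gpr34 by 0.45, the nucleotide receptor P2ry13 by 0.22 and the protease Ctss by 0.17. Not all markers had this direction. Laptm5, a lysosomal membrane protein of blood-derived cells, had a mean of -0.33 and was lower in all 5 pairs, as was Itgam, the integrin chain CD11b, with -0.49, reaching -1.46 in the striatum pair. Aif1, Trem2 and Ptprc differed by -0.05, -0.0035 and 0.03 with mixed signs. Among markers of blood, red blood cell genes changed sign between regions, with list medians of -0.81, -0.26, -0.17, 0.18 and 0.74 over 3 tested members, and their part in the microglia values was not tested.

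The stress response of the endoplasmic reticulum raises chaperones when unfolded protein builds up there. Of 20 listed genes 19 were tested and none was called, while 7 (36.8%) were higher in all 5 pairs, against 13%, and 2 (10.5%) were lower. The list median was 0.093. Beside Hyou1, described above as a chromosome 9 gene, Xbp1, the transcription factor of the response, differed by 0.28 (SE 0.060, adjusted p 0.0989 in limma), the chaperone Hspa5 by 0.25 with 0.64 in the striatum, Ddit3 by 0.20 and the secreted factor Manf by 0.15. The chaperone Hsp90b1 (-0.18) and the brightest of 4 disagreeing probes of the co-chaperone Dnajc3 (-0.21) were lower in all 5 pairs, and Calr and Pdia4 had mixed signs, so the list as a whole did not have 1 direction.

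**Figure D4:**
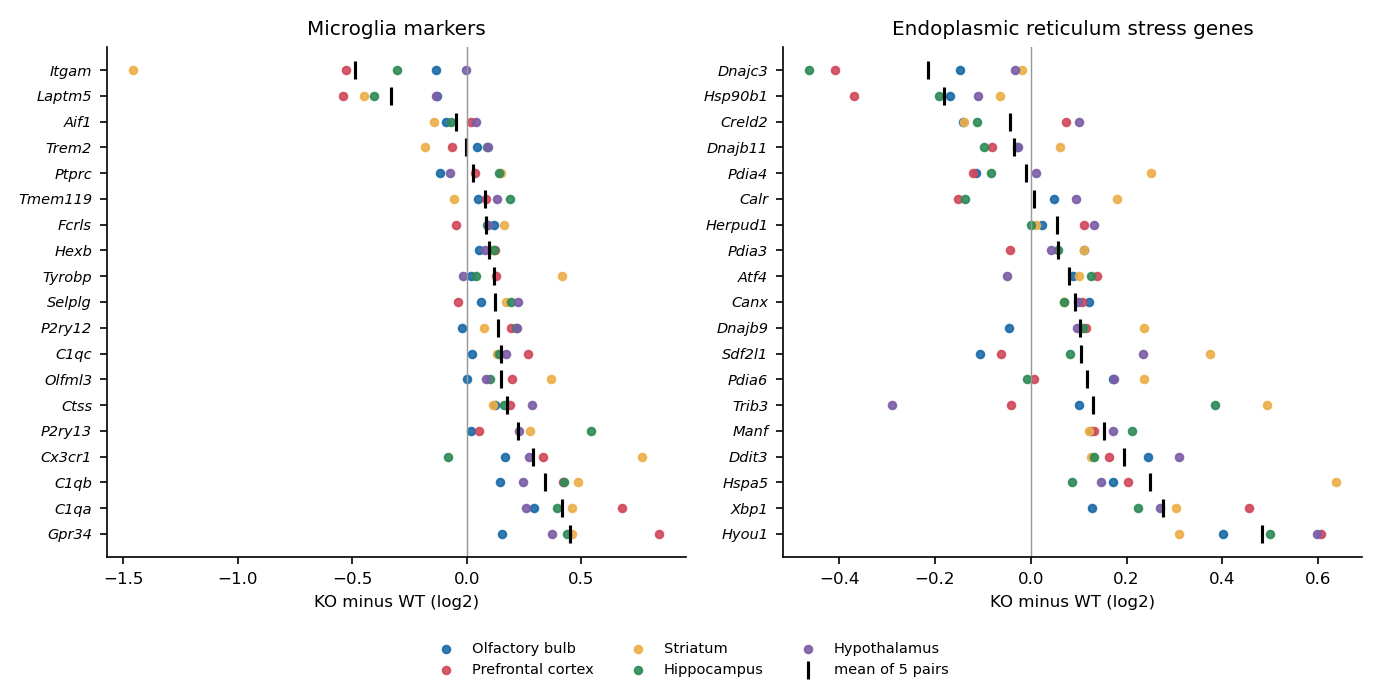
KO minus WT (log2) in each region pair (coloured points) with the mean of 5 pairs (black bar) for 19 tested microglia markers (left) and 19 tested endoplasmic reticulum stress genes (right), ordered by mean. Gpr34, C1qa and C1qb lie right of 0 in all pairs while Itgam and Laptm5 lie left; on the right panel Hyou1 and Xbp1 have all points above 0 and Hsp90b1 and Dnajc3 all points below.

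Other members of the called genes' families were not called. Cryab was the sole called member of 18 tested heat shock genes, whose median was 0.024. In all pairs 4 of them were higher (22.2%, against 13% of all named genes) and 3 lower (16.7%, against 11.2%). Dnajb1, an HSP40 co-chaperone, differed by 0.15 and Hspa8, the constitutive HSP70 and also a chromosome 9 gene, by 0.18. Hspb1 differed by 0.02 and Hsph1 by -0.02. Alg9 was the sole called member of 21 tested genes of N-glycan assembly, whose median was 0.0061. In all pairs 5 of them were higher (23.8%, against 13%) and 1 lower (4.8%, against 11.2%). Dpagt1, the enzyme of the first step of that pathway and also a chromosome 9 gene, differed by 0.23 and Alg5 by 0.22, both higher in all pairs. Rps25 was not called by its brightest probe, and of 78 tested cytosolic ribosomal protein genes 7 were higher and 2 lower in all pairs (9.0% and 2.6%, both under the shares of all genes).

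Inflammatory programmes that lie downstream of cytokines showed no called member among those tested. The other listed members were not measured on all 10 arrays and gave no value. Of 24 listed NF-kB target and inflammation genes only 12 were tested, with a median of -0.0079. Of these, 1 was higher in all pairs (8.3%, against 13% of all named genes), the mitochondrial dismutase Sod2 (0.11). Of 27 listed interferon-responsive genes 18 were tested, with a median of 0.022. In all pairs 3 were higher (16.7%) and 1 lower (5.6%, against 11.2% of all named genes), the latter being the signal transducer Stat2 (-0.30). Of 15 listed genes of antigen presentation 9 were tested, with a median of 0.045 and 2 higher in all pairs (22.2%). Steroid and clock genes gave probes that disagree. The brightest probe of Fkbp5, a chaperone partner of the glucocorticoid receptor, was lower in all pairs (mean -0.42, SE 0.108), while a second probe was higher in all pairs (0.30, SE 0.069) and the third gave -0.03. The receptor gene Nr3c1 had 0.32 at its brightest probe, from 0.075 to 0.86 over the pairs, but -0.25 and 0.0037 at its other probes. The clock repressor Nr1d1 had 0.26 at its brightest probe and -0.07 at the other. The medians of those lists were 0.013 over 16 glucocorticoid-responsive and 0.027 over 18 clock genes. Of 72 tested respiratory chain genes, 10 were higher and 9 lower in all pairs (13.9% and 12.5%), close to the shares of all genes.

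Among markers of other cell types, the list median was 0.018 for 13 astrocyte genes, -0.0046 for 13 neuronal genes and 0.028 for 13 genes of GABA neurons. The 13 oligodendrocyte genes had a median of 0.092. Mog, Opalin (0.32) and Olig2 (0.20) were higher in all pairs (23.1%, against 13% of all named genes), and 1 member was lower (7.7%, against 11.2%). The myelin gene Mbp (-0.10) had mixed signs, and in the striatum pair the list median was -0.079, with 10 of 13 lower. Of 16 tested genes of endothelium and pericytes none was higher and 3 were lower in all pairs (18.8%, against 11.2% of all named genes), namely the cadherin Cdh5 (-0.22), the VEGF receptor Kdr (-0.27) and the PDGF receptor Pdgfrb (-0.15). By mean difference, 11 of the 16 were below 0 and 5 above, among the latter Tek (0.26, higher in 4 of 5 pairs). The median of that list was -0.056, with 15 of 16 lower in the hippocampus pair and 12 of 16 higher in the hypothalamus pair. Genes of tissues at the edge of the slices differed by region. The 11 tested genes of meninges, such as the collagens Col1a1 (-0.37) and Col1a2 (-0.34), had a median of -0.27. On average 10 of 11 were below 0, and 2 were lower in all pairs (18.2%, against 11.2% of all named genes). Their medians by region were -0.28 in the olfactory bulb and -0.75 in the hypothalamus and 0.083 in the striatum. The 4 tested genes of choroid plexus, a tissue within the ventricles, had medians of -0.52, -0.068, 0.43, 0.66 and -0.59 in the 5 pairs in order. The part of these differences in tissue makeup in the other results was not tested. Neuropeptides, which the study's title names for the amygdala, had a median of 0.021 over 27 tested genes in these 5 regions, with 3 higher and 1 lower in all pairs (11.1% and 3.7%), and their 22 tested receptors had a median of 0.011.

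Ribosomal protein genes lay mostly on 1 side of 0 within single regions. In the hypothalamus pair 75 of 78 were higher in KO (median 0.080), and in the hippocampus pair 60 of 78 were lower (median -0.089), each with 1 array per genotype. The medians of the other pairs were -0.021, -0.037 and -0.068.

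**Figure D5:**
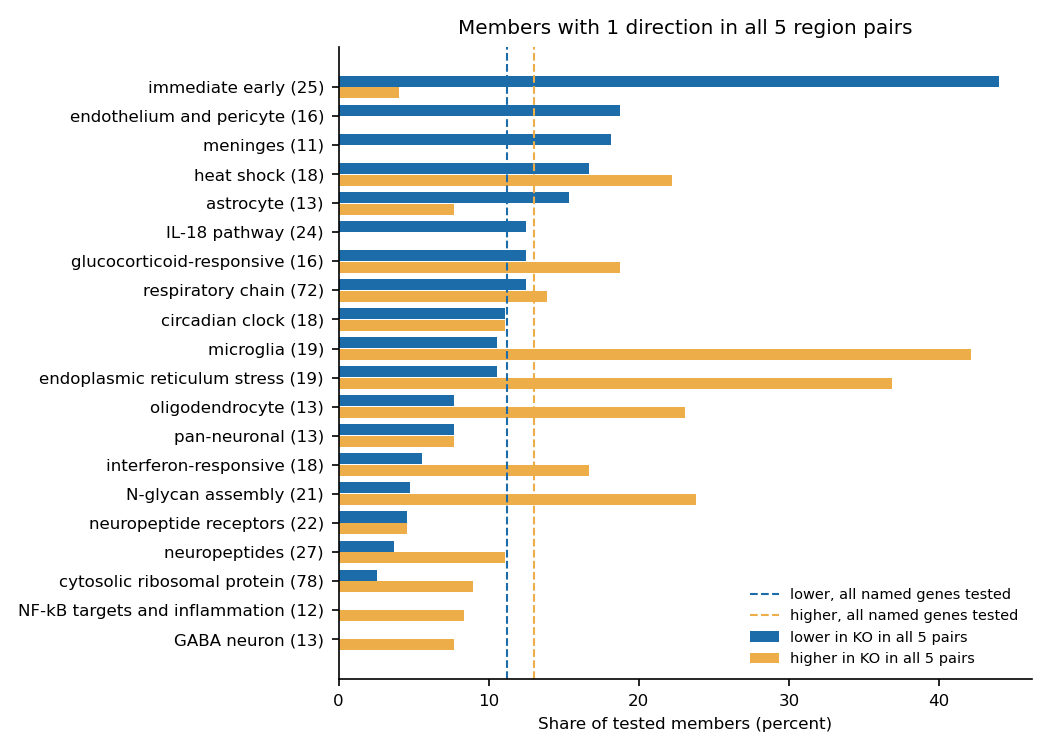
Share of tested members (percent) that were lower (blue) or higher (orange) in KO in all 5 region pairs, for the lists with at least 10 tested members (number in brackets); dashed lines mark the same shares over all named genes tested, 11.2% lower and 13% higher. Immediate early genes (44% lower) and the microglia (42.1%) and endoplasmic reticulum stress (36.8%) lists on the higher side lie farthest from the dashed lines, and no test was made of the lists.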

How the data were processed

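RNA pooled from 5 mice per array was labelled with Cy3 from 400 ng and hybridised to one-colour Agilent arrays, per the labels. The deposited scanner files hold spot intensity from Agilent Feature Extraction 9.5.3.1, with a processed signal that the software had background-corrected, per the file headers. A deposited table of the authors holds KO over WT fold ratios, which equalled the processed-signal ratios up to 1 constant per region (largest departure 0.0069 on the log2 scale). From the intensities, log2 of the processed signal minus the 75th percentile of the array's gene spots was computed. Control spots and spots flagged as outliers were dropped, and spots of a probe were averaged. Probes well above background on all 10 arrays were tested in limma 3.58.1 (R 4.3.3) with genotype and region as terms, eBayes and Benjamini-Hochberg adjustment over 23921 probes, threshold 0.05. The fit was tested on simulated data. Probes were named through unversioned accessions in a RefSeq gene table (GRCm38.p6); 55.7% had a symbol, and gene order alone was taken from that table. Symbols missing there are not named here.

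By the rule for named genes, those eligible were every gene with a called probe, the 12 genes of smallest p and the 6 of largest difference in each direction among those with 1 sign in all 5 pairs, the tested members of the IL-18 pathway, and up to 4 members of smallest p in each of 32 gene lists. The text gives those its results turn on and summarises the others. Other list members (such as Arc, Junb, Itgam and Hsp90b1) were picked knowing their values. The comparison, the members and the lists were chosen with earlier results of these data known. Region pairing comes from the labels. Alternatives covered background correction, scaling, the filter on dim probes, the variance model, flagged spots, averaging probes, the amygdala pair, the region block, the authors' ratios and leaving out each pair. Normexp correction used the spot median, since the files hold no spot mean, and this was chosen after seeing the data. The number of arrays limits the precision.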

Additional observations from a re-analysis of the deposited data

Results flagged for a closer look

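A pair was marked where its difference stood apart from the other 4 pairs by more than Dixon's 95% critical value of 0.71. Of 201 genes and list medians examined, 21 (10.4%) had such a pair. Chance alone marks about 1 in 20 where values have like spread and are not selected. Here the pairs differed in spread and genes were partly picked by p-value, so an excess over chance cannot be read from the count. The differences below are KO minus WT on the log2 scale, each with 1 array per genotype.

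In the striatum pair, which holds the dimmest arrays, Camk2a, a kinase of excitatory synapses, was at -2.08, against -0.31 to 0.015 elsewhere, while the vesicular glutamate transporter Slc17a7 was at 0.67, Nrn1 at 0.66 and the hippocampal marker C1ql2 at 2.26. The endothelial cadherin Cdh5 was at -0.40 and the Y-linked helicase Ddx3y at 0.35 in the same pair. In the hippocampus pair Sln stood at 2.97, Alg9 at -0.42 (the other pairs lay between -0.69 and -0.62) and Tab2 at -0.35. The hippocampus also stood apart for the list medians of neuronal genes (-0.049) and interferon-responsive genes (0.11).

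In the hypothalamus pair the meningeal transporter Slc6a13 was at -1.21, Fdxacb1 at -0.48, the astrocyte gene S100b at 0.066 and the precursor cell receptor Pdgfra at -0.076, and the median of endothelial and pericyte genes was 0.17, against -0.12 to -0.047 elsewhere. In the prefrontal cortex pair Gsdmd was at -0.28 and Alg5 at 0.41. In the olfactory bulb pair the clock factor Nfil3 was at -0.54, the median of microglia markers at 0.045 and that of NF-kB targets at -0.12. Removing the hippocampus pair took the mean of Sln from 0.69 to 0.12, and removing the striatum pair took that of Camk2a from -0.57 to -0.19.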

How the results depend on the processing

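The count of 13 called probes depended on the setting. It was 15 with normexp correction, 13 with median scaling, 9 with quantile normalization, 13 with flagged spots kept and 11 with the authors' ratios. It was 3 with probes above background on at least 5 arrays, 1 with no filter, 696 among the brighter 50% of the probes, 22 with trend and robust variance, 6 after averaging the probes of a gene, 811 with the amygdala pair added, and 1 with no replicate block, that is without pairing by region. Leaving out 1 region pair gave 1 to 6 calls: 1 without the olfactory bulb, hippocampus or hypothalamus pair, 3 without the striatum and 6 without the prefrontal cortex. The cause of these shifts was not tested beyond the construction of each alternative (fewer probes tested among the brighter 50%, 1 pair more with the amygdala). Il18 was called in 15 of the 15 alternatives that held it, between -4.36 and -3.01. Cryab (-1.20 to -0.95) and Alg9 (-0.65 to -0.49) were each called in 7 of 17, with adjusted p between 0.00465 and 1 and between 0.0094 and 1, and in none that left out a pair. The dimmer probes were called in 7 of 16 alternatives for Pts, 9 of 14 for Rps25, 10 of 15 for Pcsk7 and 5 of 14 for Ift46.

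The count of probes with 1 sign in all pairs was 5882 of 23921 tested, and 3365 of 11960 among the brighter 50%. With a pair left out, where 1 pair fewer had to agree, it was 6765 to 9231, the highest without the striatum. The microglia genes higher in all pairs numbered 5 of the 11 tested among the brighter 50%, beside 8 of 19. The immediate early genes lower in all pairs numbered 7 of the 21 tested with the authors' ratios, beside 11 of 25. The endoplasmic reticulum stress genes higher in all pairs numbered 3 of 19 with the amygdala pair, where 1 pair more had to agree, beside 7 of 19. The median of the endoplasmic reticulum stress list was 0.068 with normexp, 0.12 with median scaling, 0.057 with the amygdala and 0.067 to 0.092 with a pair left out. Averaging probes turned Ift46 to -0.43 and Uchl1 to 0.035. Adding the amygdala pair turned the sign of Mia (-0.22), Rarres2 (-0.21), Foxj1 (-0.26), Tekt1 (-0.19), Ghrh (-0.18), Pdyn (-0.030), Qrfp (0.074), Th (-0.23), Oxt (-0.88) and Hcrt (-1.16). Of 3218 values recomputed for single genes and lists, 3067 kept their direction and their side of the threshold. Most of these were for genes that were not called and had no call to lose, so the count does not describe the called probes. A call was lost in 51 values. Genes not well above background on all 10 arrays could not be measured at this signal.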
